A study of Homo sapiens with 6 samples.

Results

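Drug transporters are membrane proteins that carry drugs, hormones, bile salts, lipids and metabolites into and out of cells. The genes described here were chosen by symbol: all genes of the ATP-binding cassette families A to G (ABC), the organic anion transporting polypeptides (SLCO), the organic cation and anion transporters of the SLC22 family, and the multidrug and toxin extruders SLC47A1 and SLC47A2. They number 81 of the 19960 genes in the deposited table, made up of 45 ABC, 12 SLCO, 22 SLC22 and 2 SLC47 genes. Their RNA was measured in MKN28, a human cell line established from a gastric adenocarcinoma, which cell line registers list as a derivative of the line MKN74. All cells were stable lines grown in RPMI medium with foetal bovine serum. In 3 libraries the cells carried a plasmid for a scrambled short hairpin RNA (shSCR), and in 3 they carried a plasmid for a hairpin against LTBP1 (shLTBP1), which encodes latent TGF-beta binding protein 1. How many hairpin sequences were used, whether a line is 1 clone or a pool, and whether libraries of a group were separate cultures is not given in the labels. The p-values therefore rest on library-to-library spread alone, which can be technical.

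Most ABC proteins use ATP to drive transport across membranes, in many cases export. Members of the B, C and G families pump drugs and their glutathione, glucuronide and sulfate conjugates out of cells, A and G members move sterols and phospholipids, and E and F members have no membrane domain and act in translation. SLCO and SLC22 proteins mostly carry their substrates into the cell, and in the liver and kidney they take up drugs that ABC and SLC47 pumps then remove. In gastric and intestinal cancer cells, both the uptake carriers and the pumps are studied because they set how much of a drug stays inside.

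The values are normalized read counts per gene and library. Their sums ran from 30479879 to 30941103 per library, and 14857 to 15098 genes were above 0. LTBP1 had 977, 964 and 1011 in shSCR and 59.0, 66.7 and 49.0 in shLTBP1, so that 5.92% of the control mean remained (log2 fold change -4.07, limma adjusted p = 1.18e-08). The 6 epithelial markers were high in every library, with a summed value of 324236 to 344681 in shSCR and 287672 to 311549 in shLTBP1. They moved with the groups all the same: EPCAM, which lies on chromosome 2, fell to 46.0% of its shSCR mean (limma adjusted p = 1.39e-07), CDH1 to 78.8% and KRT18 to 84.2%, KRT19 and CLDN4 rose to 117% and 120.3%, and KRT8 did not pass. With chromosomal neighbours subtracted KRT19 no longer passed (limma adjusted p = 0.814) and KRT8 did (0.0196). Of 6 gastric markers TFF2, GKN1 and MUC6 were listed at 0 throughout, and all 6 summed to 0.703 to 4.63 in shSCR and 1.68 to 4.11 in shLTBP1, so defining stomach markers were near 0 in a line labelled gastric. The 6 hepatocyte markers summed to 6.16 to 16.6 and 4.12 to 17.0. Of 5 intestinal markers CDX2, a transcription factor of intestinal identity, rose from 1377 ± 100.2 to 2677 ± 262 (log2 fold change 0.96, limma adjusted p = 7.73e-06), and the other 4 were below the mean of 10, 3 of them listed at 0 throughout. Fibroblast markers summed to 1095 to 1337 and 706 to 930, nearly all of it COL1A1, while LUM was 0 in each shSCR library and 41.5, 52.0 and 36.6 in shLTBP1. The shSCR replicate 3 library stood apart by its globin RNA, with 803 for HBA1 and 132 for HBB, where the other libraries had at most 12.0 and 0. Without it, 11 transporter genes rose and 9 fell, and the part of these markers in the results below was not tested.

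Of the 81 transporter genes, 41 had a mean of at least 10 over the 6 libraries and were tested, 26 lay below that mean, and 14 were listed at 0 in every library. At a limma adjusted p of 0.05, 13 of the 41 were higher in shLTBP1 (26.3% of all tested genes were higher) and 10 were lower (26.8% of all tested genes were lower). Together 23 of 41, or 56.1%, changed, against 53.1% of the 12789 genes tested, so the share was near that of genes at large. Of the 41, 14 changed by at least 1.5-fold, which is 34.1% against 20.0% of all tested genes. A change of at least 2-fold was seen for 10, 5 up and 5 down, which is 24.4% against 8.92%. No test was made of these differences in share. The values of the groups did not overlap for 24 genes, against 60.8% of all tested genes. The median log2 fold change was 0.0077 over the 41 genes and 0.0038 over all genes tested, because rises and falls were of similar number. All fold changes are on the log2(value + 1) scale, shLTBP1 over shSCR, which understates the change of low genes.

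**Figure D1:**
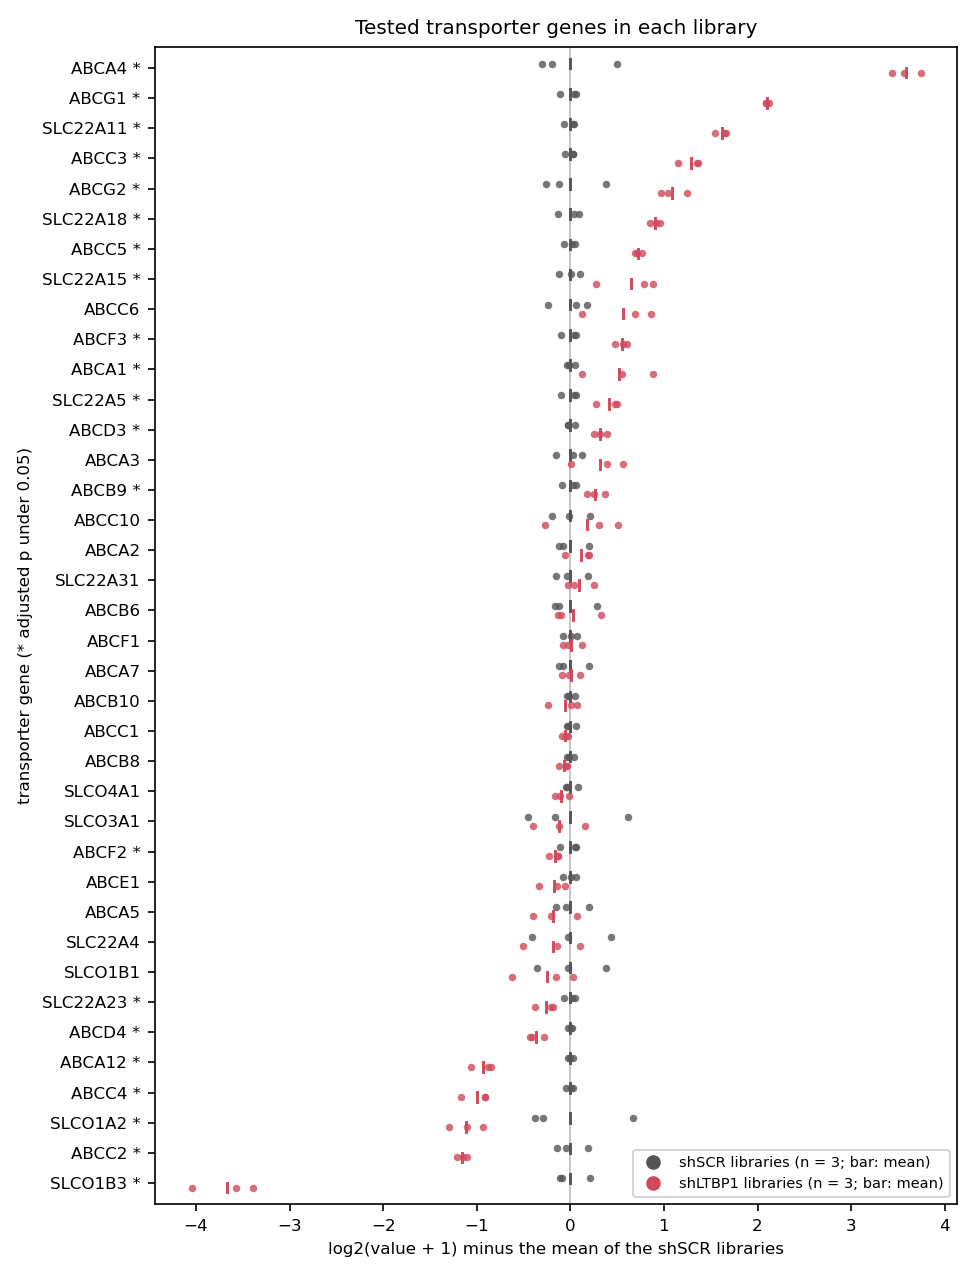
The tested transporter genes, 38 of 41, in each library, as log2(value + 1) minus the mean of the shSCR libraries (x axis); dots are libraries, bars are group means and asterisks mark a limma adjusted p under 0.05. The genes run from ABCA4 at 3.58 to SLCO1B3 at -3.67, with 13 shown as called higher, 8 as called lower and 17 as not past the threshold.

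**Figure D2:**
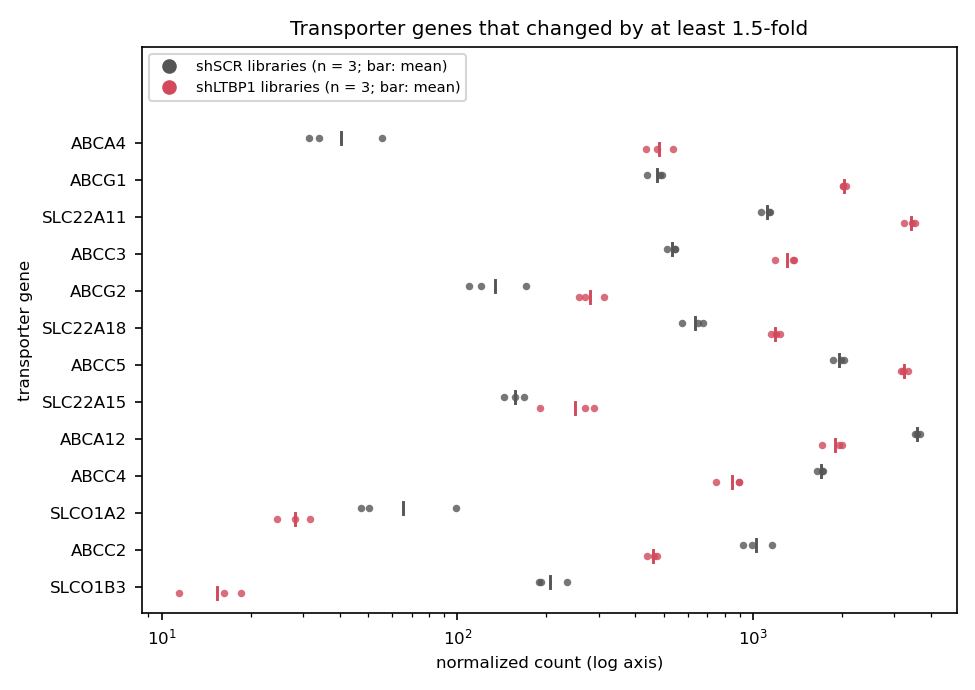
Normalized counts (log axis) of 13 of the 14 transporter genes that changed by at least 1.5-fold, 1 dot per library with a bar at each group mean. In shLTBP1 8 genes lie higher and 5 lower. The groups overlap for none of these 13, which the choice by adjusted p and fold change makes likely in advance.

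For 4 of these 14 genes the 250 bases before a RefSeq start site are shown as examples: the uptake carrier with the largest fall, both pumps that fell and 1 carrier that rose. At most 24 bases of each window lie in annotated exons. The build is GRCh38.p14, and capitals mark matches to the motifs searched, on either strand. Which start these cells used was not measured.
SLCO1B3, fell, chr12:20810455-20810704, plus strand: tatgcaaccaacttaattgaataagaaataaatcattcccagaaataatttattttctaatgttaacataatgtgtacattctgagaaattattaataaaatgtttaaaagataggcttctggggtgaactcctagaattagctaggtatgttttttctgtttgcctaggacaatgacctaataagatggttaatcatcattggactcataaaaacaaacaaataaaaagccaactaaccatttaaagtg
ABCC2, fell, chr10:99782390-99782639, plus strand: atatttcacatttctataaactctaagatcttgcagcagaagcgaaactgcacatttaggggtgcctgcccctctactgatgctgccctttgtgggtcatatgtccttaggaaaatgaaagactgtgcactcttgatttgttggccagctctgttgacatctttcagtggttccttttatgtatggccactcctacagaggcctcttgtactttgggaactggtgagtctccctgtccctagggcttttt
ABCC4, fell, chr13:95301452-95301701, minus strand: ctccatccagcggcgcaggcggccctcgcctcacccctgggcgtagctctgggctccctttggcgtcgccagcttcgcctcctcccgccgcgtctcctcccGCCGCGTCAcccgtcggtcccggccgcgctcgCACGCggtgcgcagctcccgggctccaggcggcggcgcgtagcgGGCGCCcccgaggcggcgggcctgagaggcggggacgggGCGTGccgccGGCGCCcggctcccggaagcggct
SLC22A15, rose, chr1:115976263-115976512, plus strand: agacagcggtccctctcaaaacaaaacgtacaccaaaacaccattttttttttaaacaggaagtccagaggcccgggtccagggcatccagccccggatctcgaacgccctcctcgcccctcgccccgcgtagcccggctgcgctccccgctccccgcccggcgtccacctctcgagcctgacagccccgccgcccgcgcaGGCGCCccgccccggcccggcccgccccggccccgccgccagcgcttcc

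The windows differ in base composition, with G and C making up 28.4% for SLCO1B3, 45.6% for ABCC2, 80.4% for ABCC4 and 71.2% for SLC22A15, around a median of 58% over 35116 RefSeq promoters. The motifs were the AP-1 site TGANTCA, the antioxidant response element TGACNNNGC bound by NRF2, the xenobiotic response element core GCGTG, the E-box CACGTG and the site GGCGCC bound by SMAD proteins of the BMP branch. SLCO1B3 and ABCC2 held none of these letters in the window. ABCC4 held the antioxidant element 149 bases before its start, the xenobiotic core at 117 and 34 bases and GGCGCC at 73 and 24 bases. SLC22A15 held GGCGCC at 49 bases. In the 80 listed promoters of 56 transporter genes the shares were 7.5% for AP-1, 12.5% for the antioxidant element, 31.2% for the xenobiotic core, 12.5% for the E-box and 12.5% for GGCGCC. Over all promoters they were 6.57%, 10.9%, 32.2%, 6.34% and 16.4%. These shares count start sites and not genes, so a gene with several listed starts is counted for each. Windows of a gene can overlap and hold the same match, as the E-box windows of ABCG2 did. A match is a description of the letters and shows no binding. Of the other genes changed by at least 1.5-fold, ABCA4, ABCC3, ABCG1, SLC22A11 and SLC22A18 had no entry in the table.

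The organic anion transporting polypeptides that changed were lower in shLTBP1. SLCO1B3, whose protein OATP1B3 takes bile acids, bilirubin, statins and taxanes into hepatocytes and is also found in tumours of the digestive tract, had 191, 189 and 235 in shSCR and 11.4, 18.6 and 16.2 in shLTBP1. Every shLTBP1 library was far under every shSCR library, and the mean went from 205 ± 26.2 to 15.4 ± 3.64 (SD, n = 3 each), leaving 7.51%. On the log2 scale the change was -3.67 (standard error 0.22, limma adjusted p = 7.99e-07). SLCO1B3 (chromosome 12, 20810702 to 20916911, plus strand, hg38) lies among other carriers of its family. SLCO1B1, which encodes the close liver paralogue OATP1B1, had 9.57, 12.2 and 16.5 in shSCR and 7.75, 11.1 and 12.7 in shLTBP1, and its overlapping groups did not pass the test (log2 fold change -0.25, limma adjusted p = 0.622). The read-through gene SLCO1B3-SLCO1B7 shares exons with SLCO1B3; it had 2.97, 2.92 and 0 in shSCR and 0 in each shLTBP1 library, and how reads were divided between them is uncertain.

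SLCO1A2, a carrier of bile salts, steroid conjugates and fexofenadine that lies in the same stretch of chromosome 12 (21264600 to 21419594, minus strand), also fell. It had 47.4, 98.7 and 50.3 in shSCR and 28.2, 24.6 and 31.8 in shLTBP1, so the groups were apart but shSCR replicate 2 was higher than the others of its group (log2 fold change -1.11, limma adjusted p = 0.0104). SLCO1C1, a thyroid hormone carrier of the same cluster, was listed at 0 in every library. The median log2 fold change of the 25 tested genes on each side was -0.015 around SLCO1B3 and 0.022 around SLCO1A2. Outside the cluster, SLCO4A1, a thyroid hormone and prostaglandin carrier, had 1488 ± 71.7 in shSCR and 1390.2 ± 72.3 in shLTBP1 (limma adjusted p = 0.212). Per kb of exon SLCO4A1 stood at 367 in shSCR, against 57.9 for SLCO1B3. SLCO3A1 had 130.5 ± 53.2 and 115 ± 22.3 and did not pass either (limma adjusted p = 0.722). SLCO2B1, an intestinal uptake carrier of statins, stayed under the mean of 10 with 2.90, 0.433 and 6.89 in shSCR and 7.65, 4.13 and 5.83 in shLTBP1. Over the family 0 of 5 tested genes rose, 2 fell and 3 did not pass. That is 40% called, against 53.1% of all tested genes, a difference that was not tested.

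Of 12 drug and conjugate efflux pumps, 8 were tested, 3 of which rose, 2 fell and 3 did not pass. With so few genes, the 62.5% called is not set apart from the 53.1% of all tested genes. ABCC2 (MRP2), which exports glucuronide and glutathione conjugates across the apical membrane, had 1159.7, 988 and 926 in shSCR and 461, 438 and 474 in shLTBP1. The groups were wide apart, with 44.7% of the control mean left (log2 fold change -1.15, standard error 0.09, limma adjusted p = 4.36e-06). ABCC3 (MRP3), which exports much the same conjugates across the basolateral membrane, moved the other way, from 542, 544 and 510.3 to 1360.2, 1181 and 1375 (log2 fold change 1.29, standard error 0.08, limma adjusted p = 7.79e-07). Per kb of exon ABCC2 stood at 118 to 148 in the shSCR libraries, above ABCC3 at 53.1 to 56.6. In the shLTBP1 libraries ABCC2 stood at 56.0 to 60.4, below ABCC3 at 123 to 143, so the order of these pumps was turned in every library. It was turned as well per kb of the longest coding sequence, where ABCC2 had 221 and 98.8 and ABCC3 had 116 and 285 as group means.

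ABCC4 (MRP4), an exporter of cyclic nucleotides, prostaglandins and nucleotide analogues, fell from 1729, 1639 and 1705 to 897, 749 and 896, with 50.1% left (log2 fold change -1.00, limma adjusted p = 4.26e-06). ABCC5 (MRP5), which exports cyclic nucleotides and nucleotide analogues too, had 1866, 2022 and 1984 in shSCR and 3339, 3164 and 3207 in shLTBP1 (log2 fold change 0.73, limma adjusted p = 2.45e-06). Per kb of exon ABCC4 stood at 190 to 200.2 and ABCC5 at 163 to 177 in shSCR, and at 86.8 to 104 and 277 to 292 in shLTBP1. Their order in shSCR rests on the length used, since per kb of the longest coding sequence ABCC5 was already above ABCC4 there (454 and 425 as group means) and remained so in shLTBP1 (751 and 213). ABCG2 (BCRP), the pump of topotecan, mitoxantrone and urate, rose from 109.7, 171 and 120.4 to 312, 271 and 258, with no overlap of the groups (log2 fold change 1.09, standard error 0.17, limma adjusted p = 0.000417).

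ABCC1 (MRP1), a broad exporter of glutathione conjugates and the most abundant pump per kb of exon, had 4879.9, 4816 and 5158 in shSCR and 4652, 4864 and 4779 in shLTBP1. Its groups overlapped (log2 fold change -0.05, standard error 0.05, limma adjusted p = 0.341). ABCB1, the gene of P-glycoprotein and the classical multidrug resistance pump, was listed at 0 in all 6 libraries. ABCC10 had 409 ± 58.0 and 473 ± 125, with an adjusted p of 0.434 that became 0.0256 without shLTBP1 replicate 2. ABCC6 had 35.7 ± 5.22 and 54.0 ± 13.8, with an adjusted p of 0.0853 that became 0.0278 without shLTBP1 replicate 1; near-identical pseudogenes make its reads uncertain. The pumps ABCB5, ABCC11 and ABCC12 were under the mean of 10, with no library above 18.9.

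**Figure D3:**
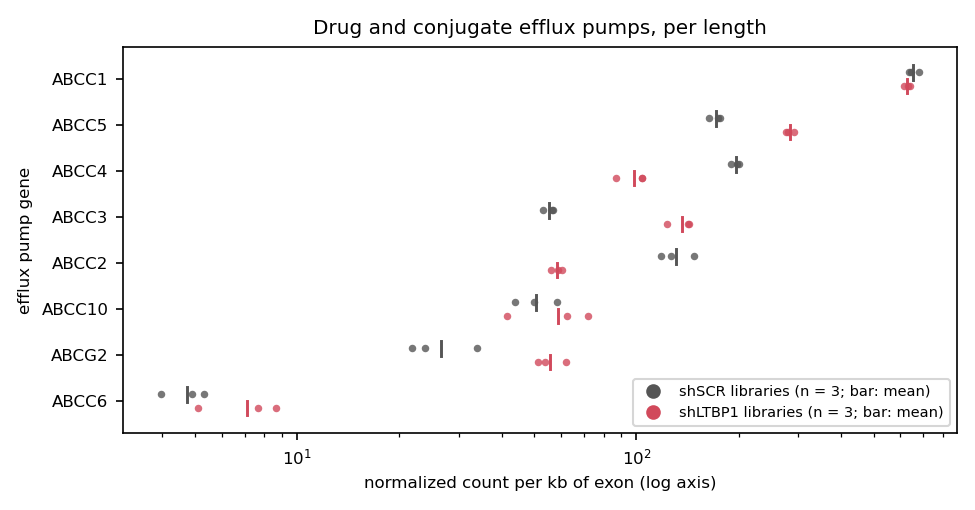
Normalized count per kb of summed exon length (log axis) of the 8 tested efflux pumps, 1 dot per library with a bar at each group mean. ABCC1 keeps the top place at 654 and 629, while ABCC2 lies above ABCC3 in shSCR (131 and 55.4) and below it in shLTBP1 (58.4 and 136).

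Of 16 lipid and sterol transporters of the ABC families, 8 were tested, of which 3 rose, 1 fell and 4 did not pass. The 50% called is near the 53.1% of all tested genes. ABCA4, a flippase of retinylidene phospholipid known from photoreceptors, had 55.7, 31.4 and 34.1 in shSCR and 434, 473 and 536 in shLTBP1. Its rise was the largest of all the transporter genes, 12.0-fold on the fitted scale (log2 fold change 3.58, standard error 0.21, limma adjusted p = 6.48e-07). ABCG1, which loads cholesterol onto high-density lipoprotein, rose from 485, 438 and 492 to 2009.8, 2057 and 2011, and the shLTBP1 libraries were close together (log2 fold change 2.10, standard error 0.07, limma adjusted p = 1.5e-08). ABCA1, which loads cholesterol and phospholipid onto apolipoprotein A-I, had 139, 134 and 131 in shSCR and 198, 146 and 249 in shLTBP1 (log2 fold change 0.52, limma adjusted p = 0.0324). Leaving out shSCR replicate 1, 2 or 3, or shLTBP1 replicate 1 or 3, ended that call, with adjusted p up to 0.109 and a log2 fold change of 0.34 without shLTBP1 replicate 3. It also ended with no filter (0.0535), quantile normalization (0.0552) or no mean-dependent trend (0.0656).

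ABCA12, which moves glucosylceramide into the lamellar granules of keratinocytes, fell. It had 3529, 3581 and 3663 in shSCR and 1945, 1715 and 2001 in shLTBP1 (log2 fold change -0.93, limma adjusted p = 1.74e-06). ABCA2, ABCA3, ABCA5 and ABCA7 did not pass, with log2 fold changes of -0.18 to 0.32; ABCA3, the lamellar body transporter of surfactant lipids, reached an adjusted p of 0.0142 without shLTBP1 replicate 3. The sterol exporter pair ABCG5 and ABCG8 was listed at 0 or had single low values of at most 2.13.

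ABCG1 and ABCA1 belong to the textbook targets of the liver X receptors (LXR), nuclear receptors that sense oxysterols. Of 16 such targets 14 were tested, of which 7 rose, 3 fell and 4 did not pass. That is 71.4% called, against 53.1% of all tested genes, a difference in share that was not tested. The median log2 fold change of the 14 targets was 0.42, against 0.0038 for all genes. Leaving out the ABC genes, 5 of 12 rose and 3 fell, and the median was 0.30. SMPDL3A, a phosphodiesterase, rose from 164, 167 and 145 to 635, 767 and 688 (log2 fold change 2.13, limma adjusted p = 2.3e-07). SREBF1, the master regulator of fatty acid synthesis genes, rose by 1.17 on the log2 scale (limma adjusted p = 1.42e-06), the desaturase SCD by 1.15 and MYLIP, a ubiquitin ligase for the LDL receptor, by 1.02. APOE, the apolipoprotein of cholesterol transport, moved the opposite way, from 5640.5, 5682 and 5870.3 to 766, 941 and 707, with all shLTBP1 libraries far below shSCR (log2 fold change -2.84, limma adjusted p = 1.91e-08). The fatty acid synthase FASN fell by 0.30 on the log2 scale (limma adjusted p = 0.00209).

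**Figure D4:**
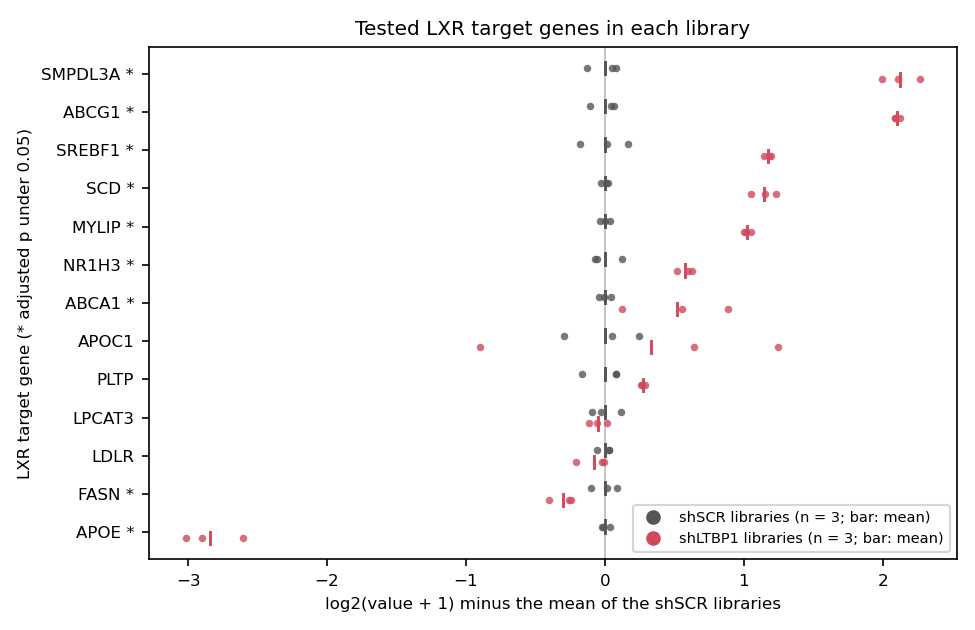
The tested LXR targets, 13 of 14, in each library, as log2(value + 1) minus the mean of the shSCR libraries (x axis); dots are libraries, bars group means and asterisks a limma adjusted p under 0.05. The list spreads from SMPDL3A at 2.13 and ABCG1 at 2.10 down to APOE at -2.84.

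In the SLC22 family 8 of 22 genes were tested, of which 4 rose, 2 fell and 2 did not pass. The 75% called, against 53.1% of all tested genes, rests on few genes and the difference was not tested. SLC22A11 (OAT4), which exchanges urate and sulfated steroids and is best known from placenta and kidney, had 1059, 1136 and 1135 in shSCR and 3456, 3525 and 3243 in shLTBP1. It was the only tested organic anion transporter among the 11 of this family, and its libraries lay close together within each group (log2 fold change 1.62, standard error 0.06, limma adjusted p = 2.95e-08). Per kb of exon SLC22A11 went from 213 to 653, beside ABCC1 at 654 and 629. The urate carrier SLC22A12 and the kidney drug carriers SLC22A6 and SLC22A8 were listed at 0 in every library. SLC22A18, an imprinted gene listed here among members of other or unsettled substrate, rose from 576, 678 and 652 to 1192, 1229 and 1146 (log2 fold change 0.91, limma adjusted p = 6.88e-06). It overlaps the antisense gene SLC22A18AS, which had 5.76, 3.09 and 12.4 against 17.5, 13.5 and 10.1 (limma adjusted p = 0.137), and since the strand setting of the counting is not given, their reads cannot be told apart with certainty.

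Among organic cation and carnitine transporters, SLC22A15, a carrier of zwitterions such as ergothioneine, rose from 157, 144 and 168 to 270.2, 189.7 and 289.7 (log2 fold change 0.65, limma adjusted p = 0.00705). SLC22A5 (OCTN2), the high-affinity carnitine carrier, rose from 509 ± 29.9 to 681 ± 56.5 (log2 fold change 0.42, limma adjusted p = 0.00254), while its neighbour SLC22A4 (OCTN1), the ergothioneine carrier, had 50.4 ± 15.1 and 43.6 ± 9.22 and did not pass (limma adjusted p = 0.585). On chromosome 6, SLC22A2 (OCT2) had 1.35 in shLTBP1 replicate 1 and 0 elsewhere, and SLC22A3 (OCT3) had 2.87, 4.71 and 0.918 in shSCR and 0.969, 0 and 0 in shLTBP1. SLC22A23, an orphan member, fell from 3145 ± 121 to 2635 ± 189 (log2 fold change -0.26, limma adjusted p = 0.00622), and SLC22A31 did not pass. SLC47A1 and SLC47A2, the proton-coupled extruders that release organic cations into bile and urine, were listed at 0 in every library. Fewer cells expressing a gene and less RNA per cell cannot be told apart in such bulk libraries.

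The ABC proteins of organelles changed by less than 1.5-fold. ABCB9, a lysosomal peptide transporter, rose by 0.27 on the log2 scale (limma adjusted p = 0.0252), a call lost without shSCR replicate 1 or 3 or shLTBP1 replicate 1 or 2, with adjusted p up to 0.0931. ABCB6, ABCB8 and ABCB10 did not pass. In peroxisomes, ABCD3, which imports branched-chain and bile acid precursors, rose from 3676 ± 111 to 4592 ± 215 (log2 fold change 0.32, limma adjusted p = 0.000496). The lysosomal cobalamin exporter ABCD4 fell from 677 ± 9.79 to 523 ± 30.2 (log2 fold change -0.37, limma adjusted p = 0.00175).

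The soluble ABC proteins of translation were the highest of all 81 genes per kb of exon. ABCE1, which splits ribosomes after termination, had 7823 ± 384 and 6925 ± 688 (1249 per kb of exon in shSCR), with an adjusted p of 0.0581 that became 0.017 without shLTBP1 replicate 3. ABCF1, a factor of translation initiation, had 5286 ± 265 and 5319 ± 392 (1169 per kb in shSCR) and did not pass (limma adjusted p = 0.926). ABCF2 fell by 0.16 on the log2 scale (limma adjusted p = 0.0476), a call lost without shSCR replicate 2 or 3 or shLTBP1 replicate 1 or 3, with adjusted p up to 0.158, and with no filter, other scalings or no mean-dependent trend (0.0551 to 0.0915). ABCF3 rose from 1584 ± 98.7 to 2315 ± 98.7 (log2 fold change 0.55, limma adjusted p = 5.56e-05).

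Several transporter genes lie in stretches of chromosome where most genes moved one way. ABCF3 and ABCC5 are neighbours on chromosome 3 (184186023 to 184194012, plus strand, and 183919934 to 184018015, minus strand, hg38), where the median log2 fold change of the 25 tested genes on each side was 0.58 and 0.50. With that median subtracted from every library, ABCF3 had -0.03 and did not pass (limma adjusted p = 0.694), and ABCC5 kept a rise of 0.22 (limma adjusted p = 0.00649). ABCA12 lies on chromosome 2 (214931542 to 215138428, minus strand), as LTBP1 does, with a neighbour median of -0.62; after subtraction it had -0.31 (limma adjusted p = 0.00235). ABCB6, on the same chromosome (219209766 to 219219017, minus strand), had 76.3 ± 14.0 and 78.1 ± 14.9 among neighbours at -0.55. Relative to them ABCB6 was higher by 0.58 (limma adjusted p = 0.0281). ABCG1 on chromosome 21 (42199689 to 42297244, plus strand) rose among neighbours at -0.39 and had 2.49 after subtraction. ABCB9 (0.17), SLC22A23 (-0.15) and ABCA1 (0.38) did not pass after subtraction, with adjusted p from 0.074 to 0.141. SLCO4A1 then passed at -0.21 (limma adjusted p = 0.0184). The neighbours of SLCO1B3, ABCA4 and ABCC3 were at -0.015, -0.02 and -0.01.

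**Figure D5:**
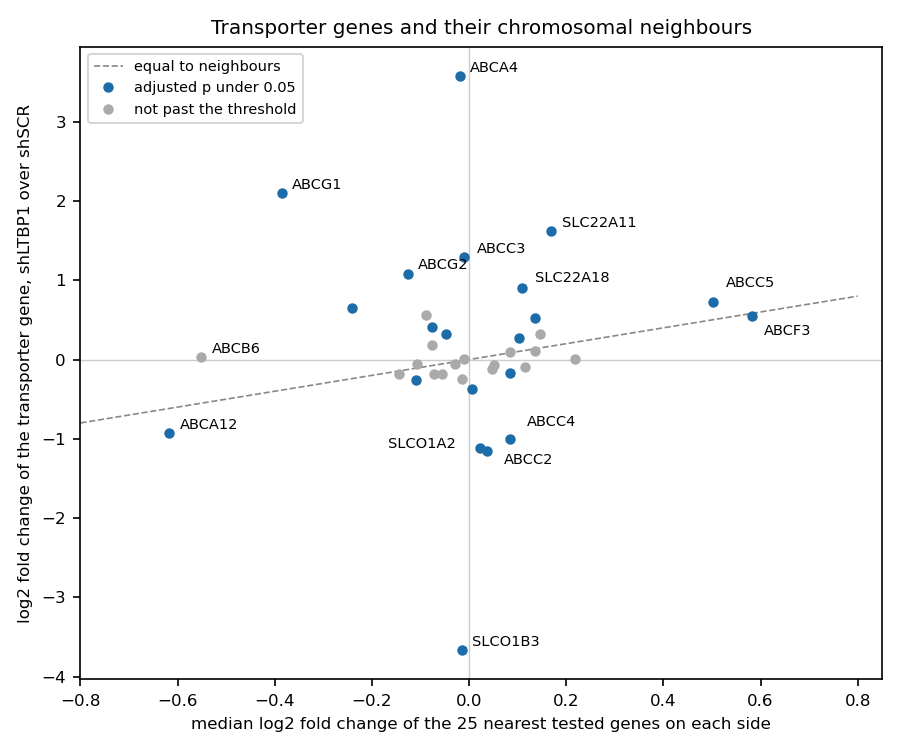
Log2 fold change of the tested transporter genes, 38 of 41 (y axis) against the median log2 fold change of the 25 nearest tested genes on each side (x axis); the dashed line marks a gene that moved as its neighbours did. ABCF3 lies on the line, ABCC5 and ABCA12 lie near it, and ABCA4, ABCG1 and SLCO1B3 lie far from it.

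Of 24 carriers outside these families 16 were tested, and 4 rose and 9 fell, which is 81.2% called against 53.1% of all tested genes, a difference in share that was not tested. Their median log2 fold change was -0.22. SLC29A3, a lysosomal nucleoside carrier, rose from 282 ± 13.5 to 701 ± 9.88 (log2 fold change 1.31, limma adjusted p = 6.93e-07). SLC28A1, a concentrative carrier of pyrimidine nucleosides, rose by 1.20 at low values (limma adjusted p = 0.00312) and the thiamine carrier SLC19A2 by 0.63 (limma adjusted p = 2.33e-05). ATP7B, a copper pump also linked to cisplatin, fell by 1.19 on the log2 scale (limma adjusted p = 0.00411), and its relative ATP7A fell by 0.60 (limma adjusted p = 0.000259). SLC7A11, the cystine carrier that feeds glutathione synthesis, fell from 5386 ± 119.8 to 3140.3 ± 304 (log2 fold change -0.78, limma adjusted p = 8.26e-06). Of the ABC genes that carry other symbols, the peptide transporter gene TAP2 fell by 0.28 (limma adjusted p = 0.00838), TAP1 did not pass (limma adjusted p = 0.505), and CFTR was below the mean of 10.

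Of 24 transcription factors and cofactors known to control these transporters, 18 were tested, and 8 rose and 5 fell. The share called was 72.2%, against 53.1% of all tested genes, and this difference was not tested. The median log2 fold change of the 18 factors was 0.12. PPARD, a fatty acid receptor, rose from 2067 ± 102 to 3693 ± 86.7 (log2 fold change 0.84, limma adjusted p = 1.07e-06). RXRA, the shared partner of LXR, PXR, CAR and other receptors, rose from 7839 ± 126 to 12120.2 ± 189 (0.63, limma adjusted p = 1.03e-06), and NR1H3, which encodes LXR alpha, from 383 ± 29.4 to 573 ± 21.1 (0.58, limma adjusted p = 0.000261). The drug sensors PXR and CAR, encoded by NR1I2 and NR1I3, were listed at 0 in every library, as was NR0B2. NFE2L2, which encodes NRF2, fell by 0.57 on the log2 scale (limma adjusted p = 8.11e-06); it lies on chromosome 2, and with its neighbours subtracted it had 0.03 (limma adjusted p = 0.626). The vitamin D receptor VDR fell by 0.49 (limma adjusted p = 0.00653).

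Of 11 proteins that anchor or traffic transporters at the membrane and were in the table, 9 were tested, and 2 rose and 4 fell. The share called was 66.7%, against 53.1% of all tested genes, and this difference was not tested. The median log2 fold change of the 9 genes was -0.09. MSN, an actin linker of the ERM family, fell at low values, from 21.7 ± 2.94 to 8.48 ± 2.98 (log2 fold change -1.30, limma adjusted p = 0.0147), a call lost without shSCR replicate 2 (0.0538). Its relative EZR had 37451 ± 477 and 35210.3 ± 1344 and did not pass (limma adjusted p = 0.0962). The vault protein MVP fell by 0.35 (limma adjusted p = 0.000948). CD44 had 5.46, 0.423 and 8.53 in shSCR and 10.4, 21.9 and 25.6 in shLTBP1 (log2 fold change 2.10, limma adjusted p = 0.0329), and the call was lost without shSCR replicate 2 (0.0639), shLTBP1 replicate 2 (0.0898) or shLTBP1 replicate 3 (0.105), and with no mean-dependent trend (0.0648).

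Below the mean of 10 lay 26 transporter genes with at least 1 value above 0. None of these was tested, and counting error weighs most on them. ABCD2, a peroxisomal fatty acid importer, had 6.69, 3.77 and 5.50 in shSCR and 0.969, 2.02 and 0 in shLTBP1, and SLC22A14 had 10.7, 3.27 and 3.94 against 1.68, 2.63 and 0.919. ABCB11, the bile salt export pump, was 0 in each shSCR library and had 0.926, 6.90 and 1.01 in shLTBP1. In these 3 genes, chosen after their values were seen, the groups did not overlap. The same held for ABCA9, with 0.597, 0.588 and 0 in shSCR and 1.81, 0.632 and 0.661 in shLTBP1. How often groups do not overlap among all genes below the mean of 10 was not computed, so no result is read from these. The testis carrier SLCO6A1 and the kidney carrier SLCO4C1 had similar low values in both groups, 7.86 ± 3.50 and 7.96 ± 5.03, and 8.18 ± 3.96 and 7.39 ± 3.93. Listed at 0 in all 6 libraries were ABCB1, ABCB4, ABCA8, ABCG5, SLCO1C1, SLC47A1, SLC47A2, SLC22A6, SLC22A8, SLC22A9, SLC22A10, SLC22A12, SLC22A24 and SLC22A25.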

How the data were processed

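Total RNA of 3 shSCR and 3 shLTBP1 libraries of MKN28 cells was sequenced with a directional MGI kit, per the labels. The submitters' processing notes name the build hg38 and the tools STAR 2.7.3a, RSEM 1.3.1, FastQC 0.10.1 and DESeq2; annotation, strand setting and filters are not stated there. The deposited values are a signal, counts normalized by the authors with DESeq2; they are fractional, whole reads could not be recovered, and depth per library is unknown. Using limma 3.58.1 in R 4.3.3, shLTBP1 was compared with shSCR by a group-only model of log2(value + 1) for the 12789 genes with a mean of at least 10, with a mean-dependent trend, two-sided p-values, Benjamini-Hochberg adjustment over all of them and a threshold of 0.05. The fit was tested on simulated data.

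Positions, summed exon length and longest coding sequence came from GENCODE 29 (GRCh38), with 19872 genes matched, and promoters from RefSeq (GRCh38.p14). Values in every library were given for genes changed by at least 1.5-fold and for the best known drug transporters; from each other list up to 3 genes that rose most and 3 that fell most were named. SCD, MYLIP, EZR, LUM, HBA1, HBB and other genes beyond this rule were chosen after their values were seen. Some genes are counted but not reported here by name or in the plots. The members and lists were chosen with earlier results of these data known. Alternatives were other pseudocounts, filters, scalings, no trend, a replicate block, neighbours subtracted and leaving out each library.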

Additional observations from a re-analysis of the deposited data

How the results depend on the processing

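Across 15 alternatives the number of transporter genes called higher was 11 to 14 (13 as reported) and called lower 8 to 11 (10 as reported), and leaving out each library gave 11 to 14 and 8 to 10. Of 610 values of single genes, 552 kept their direction and their side of the threshold, 30 lost and 11 gained a call, and 17 changed sign. Of the 14 genes changed by at least 1.5-fold, 13 kept their call in every alternative that tested them, and 1 did not. The replicate numbers did not pair the libraries, since same-numbered libraries deviated with r of -0.009, 0.058 and -0.001 across genes and not every library was closest to its own number; with the replicate block 13 genes were called higher and 11 lower. The median log2 fold change of the transporter genes was 0.091 without a filter, where 67 genes were tested, and -0.052 to 0.10 with each library left out. Changes of sign were confined to 9 genes: with quantile normalization ABCB6 had -0.042; with neighbours subtracted ABCA7 had -0.22, ABCC1 0.052, ABCA2 -0.026 and ABCF3 -0.033; and over libraries left out ABCA7 ran from -0.058 to 0.10, ABCB6 from -0.12 to 0.18, ABCF1 from -0.051 to 0.051, ABCB10 from -0.12 to 0.038, SLCO3A1 from -0.35 to 0.19 and SLC22A4 from -0.39 to 0.032. Apart from ABCF3, none of the genes that changed sign was called as reported, and beyond the subtraction itself the cause was not tested. Depth is unknown, so counting error could not be set against the low values.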
